A study of Mus musculus with 7 samples.

Results

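Cadherins, mesenchymal cytoskeleton and matrix genes, and the transcription factors of epithelial-to-mesenchymal transition (EMT) were followed in bleomycin-challenged mouse lung with and without hyperbaric oxygen (HBO). The 10 genes were a fixed list of names, Cdh1, Cdh2, Cdh11, Vim, Fn1, Snai1, Snai2, Twist1, Zeb1 and Zeb2, found by symbol among the 55401 genes of the count table. All 10 passed the filter on low counts, as did 17465 genes in total. The RNA came from right lung lobes of male C57BL/6 mice, 6 to 8 weeks old, which had all received bleomycin, an antibiotic that injures the lung, into the trachea. In the BLM group (4 mice) no HBO was given, and in the BLM+HBO group (3 mice) HBO at 2.5 ATA was given for 90 min per day on 14 days from day 7. All lungs were taken on day 21. Every mouse therefore carried the bleomycin injury, and the table held no saline group, so each value compares HBO with no HBO in an injured lung. Whether the BLM mice sat in the unpressurised chamber, as the sample records state, or were left untreated, as the supplementary methods state, was not settled. The comparison addresses whether HBO moved the genes of EMT in the fibrotic lung.

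In EMT, an epithelial cell lowers E-cadherin, which holds neighbouring cells together at adherens junctions, and gains N-cadherin, vimentin filaments and fibronectin, which go with a motile, matrix-making state. Zinc-finger factors of the Snail and Zeb families and the helix-loop-helix factor Twist1 bind E-box elements and repress E-cadherin, and TGF-beta induces several of them. In whole lung, Cdh1 comes mainly from epithelium, while fibroblasts, endothelium and macrophages carry vimentin and fibronectin whether or not any epithelial cell has undergone EMT.

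Snai1 had the smallest P of the 10 genes and was lower in every BLM+HBO mouse than in any BLM mouse, while no difference was detected in Cdh1. Snai1, which encodes Snail, was 1.89-fold lower in BLM+HBO. It was the single gene of the 10 past the thresholds of the study (edgeR's unadjusted P below 0.05 and more than a 1.5-fold difference). That is 1 gene lower and 0 higher, beside 2.89% of all tested genes lower, 3.4% higher and 6.29% in either direction. Vim was 1.31-fold lower and Snai2 1.47-fold higher, both at an unadjusted P below 0.05 and below that fold change, so 3 of 10 genes passed on P alone, 2 lower and 1 higher. Over all tested genes 10.7% did so, 5.54% lower and 5.11% higher. Fn1 had the largest mean difference of the 10, 2.11-fold, with a spread among the BLM+HBO mice so wide that it did not pass. After Benjamini-Hochberg adjustment, edgeR's quasi-likelihood test called 0 of the 10 and 0 of all 17465 genes, with a lowest adjusted P of 0.423, while 1861 genes had an unadjusted P below 0.05. DESeq2 called 128 genes after adjustment, Snai1 among them.

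Between 18157161 and 26365969 reads were counted in each mouse, and the lung markers were present throughout, with the surfactant gene Sftpc between 4549 and 16262 CPM, the count scaled to a common normalised library size. BLM+HBO 2 stood nearer the BLM mice than its 2 companions did, and for 8 of the 10 genes it was the BLM+HBO mouse closest to the BLM mean. Results that rest on this mouse are given with and without it.

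The 250 bases before the transcription start are printed for Snai1, the gene past the thresholds, and for Twist1, whose level split the mice without regard to group. The sequences are those of RefSeq on GRCm38.p6, on the plus strand of each gene, from chr2:167537945-167538194 (Snai1) and chr12:33957421-33957670 (Twist1). Capitals mark the core to which hypoxia-inducible factors bind. Its first form, GCGTG, reads as CACGC when it lies on the opposite strand, and its second form, ACGTG, then reads as CACGT. Both strands were searched.
Snai1: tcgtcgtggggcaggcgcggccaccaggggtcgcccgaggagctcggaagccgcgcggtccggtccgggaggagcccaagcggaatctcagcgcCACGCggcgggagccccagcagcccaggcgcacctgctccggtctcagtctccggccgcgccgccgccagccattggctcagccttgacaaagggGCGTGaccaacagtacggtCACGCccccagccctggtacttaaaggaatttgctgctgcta
Twist1: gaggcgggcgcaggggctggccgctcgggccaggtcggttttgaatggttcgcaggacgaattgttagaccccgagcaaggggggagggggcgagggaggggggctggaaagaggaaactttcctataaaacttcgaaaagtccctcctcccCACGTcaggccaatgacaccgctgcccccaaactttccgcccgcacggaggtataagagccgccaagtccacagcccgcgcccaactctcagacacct
The Snai1 stretch held GCGTG 3 times, starting 156, 61 and 42 bases before the start site, and no ACGTG. The Twist1 stretch held 1 ACGTG, starting 98 bases before the start site. Over 32851 stretches of the same kind, 28.2% held GCGTG at least once and 16.6% held ACGTG at least once. The mean number of matches per stretch was 0.41 for GCGTG and 0.25 for ACGTG. The bases G and C made up 70.0% of the Snai1 stretch and 62.4% of the Twist1 stretch. The Snai1 stretch also held 1 E-box of the form that Snail proteins bind, CACCTG (or, when found on the opposite strand, CAGGTG), 126 bases before the start site, found in 17.2% of all stretches and without overlap with the GCGTG matches. The Vim stretch and the 4 stretches of Zeb2 held no CACCTG. Of the Zeb2 stretches, 2 that overlap held 1 GCGTG each, 40 and 66 bases before their start sites, and the Vim stretch held neither form of the core. A match of letters is a description of the sequence and not a measured binding site.

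Cdh1 (E-cadherin, ENSMUSG00000000303.12, chromosome 8, 106603351 to 106670246, plus strand of GRCm38) had 330.3, 342, 443 and 439.6 CPM in BLM 1 to BLM 4. The BLM+HBO mice had 425, 381 and 467 CPM, all inside or close to the BLM range, with BLM+HBO 3 the highest of the 7. The means were 389 ± 61.1 CPM in BLM and 424 ± 42.9 CPM in BLM+HBO (SD, n = 4 and n = 3). The log2 fold change of BLM+HBO against BLM was 0.13 (standard error 0.15, 95% interval -0.20 to 0.46), with an adjusted P of 0.788 by edgeR's quasi-likelihood test. The interval covers a decrease of 0.20 as well as an increase of 0.46 on the log2 scale. Epcam, another surface protein of epithelial cells, had 78.2 ± 14.8 CPM in BLM and 80.1 ± 9.31 CPM in BLM+HBO (SD, n = 4 and n = 3), a log2 difference of 0.03 (standard error 0.15).

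Cdh2 (N-cadherin, ENSMUSG00000024304.14, chromosome 18, 16588877 to 16809246, minus strand), the cadherin gained in EMT and also the main cadherin of heart muscle, was expressed at a low level. It had 7.60, 4.90, 4.39 and 5.69 CPM in the BLM mice and 7.72, 6.03 and 8.29 CPM in the BLM+HBO mice. BLM 1 lay among the BLM+HBO mice, so the groups overlapped. On the log2 scale the difference was 0.38 (standard error 0.24, 95% interval -0.16 to 0.92), with an adjusted P of 0.602 by edgeR's test. Heart muscle markers stood higher in the same group: 9 of 10 passed the thresholds upward, against 3.4% of all tested genes. None was at 0 in all mice, and their summed level was 71.8 to 194 CPM in BLM and 171 to 730.1 CPM in BLM+HBO. Cardiac actin, Actc1, had 24.7 ± 8.22 CPM in BLM and 82.1 ± 32.9 CPM in BLM+HBO (SD, n = 4 and n = 3). BLM+HBO 3 had the highest Cdh2 and the lowest heart marker sum of the BLM+HBO mice. The part of heart tissue in the Cdh2 difference was not tested.

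Cdh11 (cadherin-11, ENSMUSG00000031673.6, chromosome 8, 102632095 to 102785642, minus strand), a cadherin of mesenchymal cells, had 208, 189, 142 and 159.9 CPM in the BLM mice. BLM+HBO 1 and BLM+HBO 3, at 110.1 and 105 CPM, lay below every BLM mouse, and BLM+HBO 2 lay among them at 181 CPM. Its log2 fold change was -0.40 (standard error 0.21, 95% interval -0.87 to 0.07), with an adjusted P of 0.522 by edgeR's test. Without BLM+HBO 2 it was -0.70, with an adjusted P of 0.0776 by the same test.

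**Figure D1:**
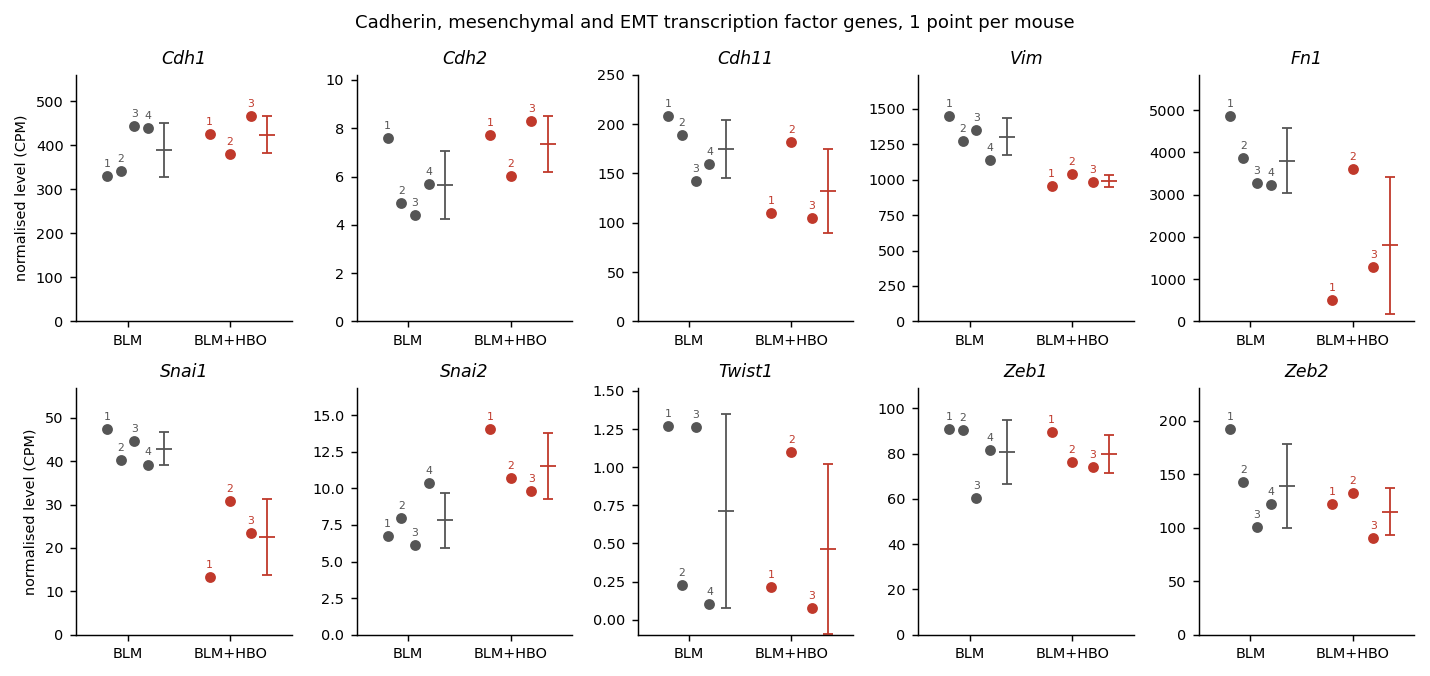
Normalised level of each of the 10 genes in CPM (y axis, linear, 1 panel per gene), with 1 numbered point per mouse and the mean ± SD beside each group (BLM, n = 4, and BLM+HBO, n = 3). The 3 BLM+HBO mice lay below all 4 BLM mice for Vim and Snai1, BLM+HBO 2 lay among the BLM mice for Fn1 and Cdh11, and Twist1 was high in BLM 1, BLM 3 and BLM+HBO 2.

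Vim (vimentin, ENSMUSG00000026728.9, chromosome 2, 13573927 to 13582826, plus strand), the intermediate filament protein of mesenchymal cells, was lower in every BLM+HBO mouse than in any BLM mouse. The BLM mice had 1450.4, 1274, 1350.3 and 1137 CPM, and the BLM+HBO mice 956, 1038 and 982 CPM. The BLM+HBO mice lay close together and had an SD of 42.0 CPM (n = 3) against 132 CPM (n = 4) in BLM. The means were 1303 and 992 CPM, a log2 fold change of -0.39 (standard error 0.13, 95% interval -0.69 to -0.10), with an unadjusted P of 0.0144 and an adjusted P of 0.423 by edgeR's quasi-likelihood test. With each mouse left out in turn the value stayed between -0.45 and -0.34, always at an unadjusted P below 0.05. In bulk tissue, fewer vimentin-bearing cells and less vimentin RNA per cell cannot be told apart.

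Fn1 (fibronectin, ENSMUSG00000026193.15, chromosome 1, 71585520 to 71653200, minus strand), a glycoprotein of the provisional matrix, varied more than any other of the 10 genes but Twist1. The BLM mice had 4866, 3863, 3272 and 3224 CPM. Among the BLM+HBO mice, BLM+HBO 1 had 510.3 CPM and BLM+HBO 3 had 1282 CPM, both below every BLM mouse, whereas BLM+HBO 2 had 3609 CPM and stood above BLM 3 and BLM 4. The highest mouse thus exceeded the lowest 9.54-fold. The log2 fold change was -1.08 (standard error 0.52, 95% interval -2.26 to 0.10), with an unadjusted P of 0.0678 and an adjusted P of 0.500 by edgeR's test. It was -2.09 without BLM+HBO 2, with an adjusted P of 0.0348, and -0.64 without BLM+HBO 1. An antisense gene, Apol7d, shares 292 bases of the Fn1 exons and had between 1 and 8 reads per mouse.

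The genes whose pattern over the 7 mice was most like that of Fn1, by the root mean square difference of centred log2 CPM, were Shc4 (0.109), Col1a1 (0.161) and Col24a1 (0.176). Col1a1 and Col24a1 encode fibrillar collagen chains. Col1a1 ran from 1766 to 3133 CPM in BLM and was 318, 1806 and 910.0 CPM in the BLM+HBO mice, with BLM+HBO 2 again above BLM 4. Activated fibroblast markers followed as well, with 5 of 5 below 0 on the log2 scale and 3 past the thresholds downward. Over all tested genes these shares were 48.8% and 2.89%. The activated fibroblast markers had a summed level of 1447 to 2167 CPM in BLM against 565, 1500 and 1009 CPM in BLM+HBO 1 to 3. For profibrotic macrophage markers, 6 of 7 were below 0 and 4 past the thresholds downward, beside the same shares over all tested genes. Their sums were 4601 to 5791 CPM in BLM and 1236, 4250 and 1516 CPM in BLM+HBO. Most of these sums was Spp1 alone, with means of 4232 CPM in BLM and 1584 CPM in BLM+HBO. General fibroblast markers were mixed, with 3 of 7 below 0 and 4 above, a median of 0.02, and 2 called lower and 1 higher. Their sums were 2429 to 4001 CPM in BLM and 1107, 2772 and 1572 CPM in BLM+HBO 1 to 3. Much of these sums was the collagen gene Col1a2 alone, with means of 2235 CPM in BLM and 1133 CPM in BLM+HBO. The lower sums therefore do not stand for all 7 markers. None of the markers of these lists was at 0 in all mice, and their part in the Fn1 and Snai1 values was not tested.

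Snai1 (Snail, ENSMUSG00000042821.7, chromosome 2, 167538195 to 167542814, plus strand), a zinc-finger repressor of E-cadherin, had 47.4, 40.3, 44.6 and 39.2 CPM in the BLM mice. The BLM+HBO mice had 13.4, 30.9 and 23.5 CPM. No BLM+HBO mouse reached the lowest BLM mouse, and BLM+HBO 2 was again the nearest. The means were 42.9 ± 3.81 CPM in BLM and 22.6 ± 8.76 CPM in BLM+HBO (SD, n = 4 and n = 3). The log2 fold change was -0.92 (standard error 0.24, 95% interval -1.45 to -0.39), with an unadjusted P of 0.00324 and an adjusted P of 0.423 by edgeR's quasi-likelihood test. The difference did not rest on 1 mouse: with each left out it ranged from -1.21 (without BLM+HBO 2) to -0.66 (without BLM+HBO 1). The adjusted P was 0.0378 by DESeq2 and 0.0387 by edgeR without BLM+HBO 2, and over all alternatives it ranged from 0.00606 to 0.802. Snai1 and Vim were the 2 genes of the 10 whose groups did not overlap, both lower, against 8.77% of all tested genes that did not overlap, 4.72% lower and 4.05% higher. Closest to Snai1 over the 7 mice were Tubb6 (0.111), a beta-tubulin, Inava (0.119) and Pgf (0.121), placental growth factor.

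Snai2 (Slug, ENSMUSG00000022676.7, chromosome 16, 14705852 to 14709385, plus strand), the paralog of Snai1, lay on the other side of 0. It had 6.72, 8.003, 6.15 and 10.4 CPM in the BLM mice and 14.1, 10.7 and 9.82 CPM in the BLM+HBO mice. BLM 4 stood above BLM+HBO 3, so the groups overlapped. BLM+HBO exceeded BLM by 0.56 on the log2 scale (standard error 0.23, 95% interval 0.05 to 1.07), with an unadjusted P of 0.0337 and an adjusted P of 0.445 by edgeR's test. Its 1.47-fold difference lay just under the fold threshold, and leaving out 1 mouse took it past that threshold for BLM 4 (0.73), BLM+HBO 2 (0.61) and BLM+HBO 3 (0.66). With any of the other mice left out the unadjusted P of edgeR's test was above 0.05, at 0.0773 (BLM 1), 0.0581 (BLM 2), 0.0779 (BLM 3) and 0.142 (BLM+HBO 1).

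Twist1 (ENSMUSG00000035799.6, chromosome 12, 33957671 to 33959829, plus strand), a helix-loop-helix factor of mesoderm, was near the limit of detection. BLM 1 to BLM 4 had 23, 4, 23 and 2 reads, and BLM+HBO 1 to 3 had 4, 23 and 2 reads. The mice split into those with 23 reads (BLM 1, BLM 3 and BLM+HBO 2) and those with 4 or fewer, across both groups. A log2 fold change of -0.64 (standard error 0.97) had a 95% interval from -2.82 to 1.53, so no difference between the groups could be detected. Mesothelial markers were highest in the same mice, with summed levels of 667 and 721 CPM in BLM 1 and BLM 3 and 497 CPM in BLM+HBO 2, against 426 and 453 CPM in BLM 2 and BLM 4 and 258 and 127 CPM in BLM+HBO 1 and BLM+HBO 3. All 6 were below 0 on the log2 scale between the groups and 2 passed the thresholds downward, against 48.8% and 2.89% of all tested genes. None of the mesothelial markers was at 0 in all mice. Their part in the Twist1 values was not tested. The genes most like Twist1, Nts (0.379), Gm4610 (0.517) and Ighv1-12 (0.628), were less close than those found for Fn1 and Snai1.

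Zeb1 (ENSMUSG00000024238.15, chromosome 18, 5591860 to 5775467, plus strand), a zinc-finger and homeodomain repressor of E-cadherin, did not separate the groups. Its level was 90.9, 90.2, 60.4 and 81.6 CPM in the BLM mice and 89.3, 76.4 and 73.9 CPM in the BLM+HBO mice, all within the range set by BLM 1 and BLM 3. Its log2 fold change was -0.02 (standard error 0.15, 95% interval -0.36 to 0.32), with an adjusted P of 0.980 by edgeR's test. Leaving out BLM 1, BLM 2, BLM+HBO 2 or BLM+HBO 3 turned its sign, with values up to 0.04. Zeb2 (ENSMUSG00000026872.18, chromosome 2, 44983632 to 45117395, minus strand), its paralog, also a macrophage and fibroblast gene, had 192, 143, 101 and 122 CPM in BLM and 122, 133 and 90.3 CPM in BLM+HBO. BLM 1 stood apart at the top and the other mice overlapped. The log2 fold change of Zeb2 was -0.28 (standard error 0.22, 95% interval -0.76 to 0.21), with an adjusted P of 0.664 by edgeR's test. Without BLM 1 it was -0.08. An antisense gene, Gm10125 (42 to 79 reads), shares bases of the Zeb1 exons, 198 in all. Other genes share 658 bases of the Zeb2 exons. They are the antisense Zeb2os (29 to 48 reads) and Gm27761 (0 reads), and Mir5129 (0 reads) on the strand of Zeb2. The counts used no strand.

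**Figure D2:**
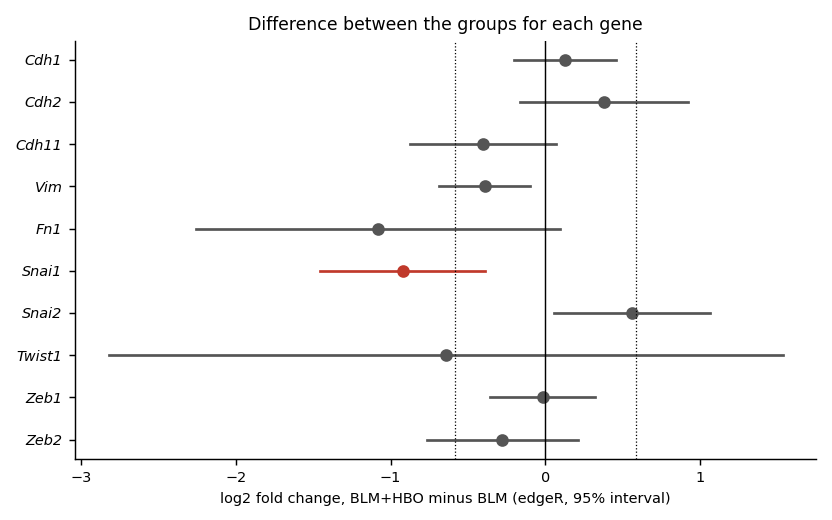
Log2 fold change of BLM+HBO against BLM (x axis) for the 10 genes (y axis), with points for edgeR's estimates, lines for the 95% intervals and dotted lines at a fold change of 1.5. The intervals of Snai1, Vim and Snai2 leave out 0, that of Snai1 (-1.45 to -0.39, red) belongs to the gene past both thresholds, and those of Twist1 and Fn1 are the widest.

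Over the 10 genes, 7 had a log2 fold change below 0 and 3 above, with a median of -0.34, beside a median of 0.01 and 48.8% below 0 over all tested genes. The 3 above 0 were Cdh1, Cdh2 and Snai2. The paralogs Snai1 and Snai2 lay on opposite sides of 0 with intervals that did not meet, and Zeb1 and Zeb2 had overlapping intervals.

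**Figure D3:**
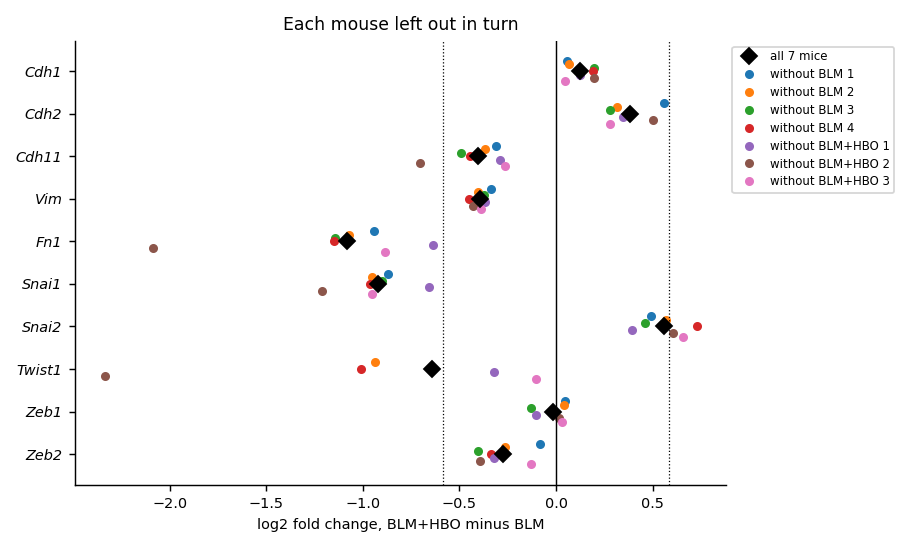
Log2 fold change of BLM+HBO against BLM (x axis) for each gene (y axis) with all 7 mice (black diamonds) and with each mouse left out (coloured points), with dotted lines at a fold change of 1.5. Fn1 ran from -2.09 to -0.64 and Vim from -0.45 to -0.34, and Twist1 has no point without BLM 1 or without BLM 3, where it failed the filter on low counts.

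Levels of different genes were compared per length, as reads per kilobase of exon scaled to a constant sum in each mouse. On this scale Fn1 (mean of the 7 mice 771) and Vim (749) were the most abundant, and their ranges overlapped, with Fn1 above Vim in 4 of the 7 mice. Cdh1 (268) came next. It lay below Vim and above Snai1 in every mouse with no overlap of ranges, but Fn1 lay below it in BLM+HBO 1, at 131 against 279 for Cdh1. Among the transcription factors the order was Snai1 (64.2), Zeb1 (23.8), Zeb2 (19.5), Snai2 (14.2) and Twist1 (1.14), with overlapping ranges between neighbours in this order except Snai2 and Twist1. Snai1 and Zeb1 overlapped through BLM+HBO 1, where Snai1 was 24.9 and Zeb1 26.1. Cdh11 (53.6) overlapped with Snai1, and Cdh2 (2.40) overlapped with Twist1 and lay far below Snai2. The exon length covered all annotated exons of a gene and not a single transcript. It was 20203 bases for Zeb2, 10266 for Zeb1 and 1621 for Snai1. In CPM, which takes no account of length, Zeb2 stood above Snai1 in every mouse, so the order rests on these lengths.

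Ratios taken within each mouse need no scaling between mice. The log2 ratio of Snai2 to Snai1 per length was -3.14, -2.65, -3.18 and -2.24 in the BLM mice and -0.25, -1.84 and -1.58 in the BLM+HBO mice. In linear terms Snai1 exceeded Snai2 by 4.71- to 9.04-fold in BLM and by 1.19- to 3.59-fold in BLM+HBO, with no overlap, and the mean log2 ratio was 1.58 higher in BLM+HBO. Vim to Cdh1, the ratio of the mesenchymal filament to the epithelial cadherin, had a mean log2 value of 1.70 ± 0.33 in BLM and 1.18 ± 0.19 in BLM+HBO (SD, n = 4 and n = 3). BLM 4 at 1.32 lay below BLM+HBO 2 at 1.39, so this ratio overlapped between the groups. The ratio of Cdh2 to Cdh1, the cadherin switch, was -6.94 ± 0.51 in BLM and -6.68 ± 0.11 in BLM+HBO (SD, n = 4 and n = 3), and every BLM+HBO mouse lay inside the BLM range. Zeb2 to Zeb1 was -0.21 ± 0.22 in BLM and -0.46 ± 0.26 in BLM+HBO (SD, n = 4 and n = 3), with overlap.

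**Figure D4:**
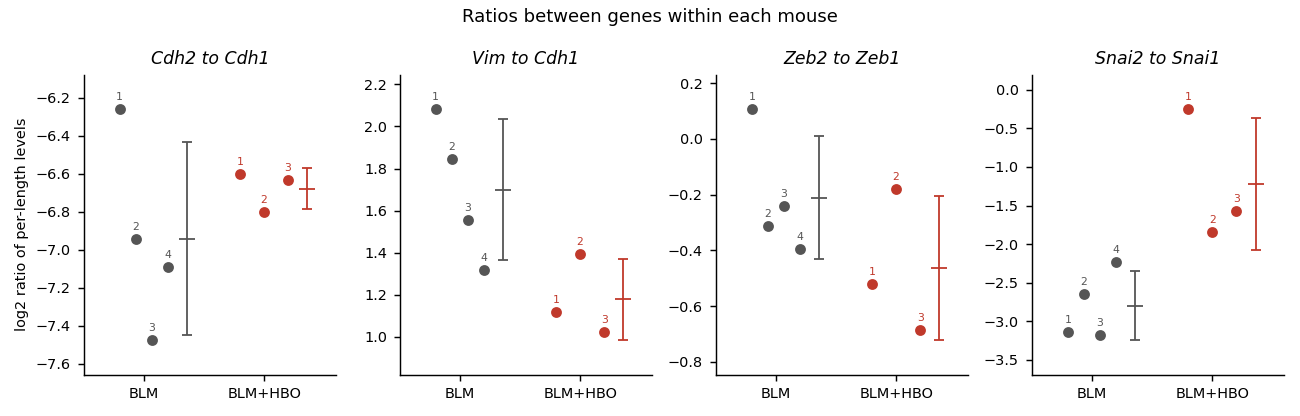
Log2 ratio of per-length levels (y axis, separate scale in each panel) of Cdh2 to Cdh1, Vim to Cdh1, Zeb2 to Zeb1 and Snai2 to Snai1, with 1 numbered point per mouse and the mean ± SD beside each group (BLM, n = 4, and BLM+HBO, n = 3). The groups were apart for Snai2 to Snai1 (means -2.80 and -1.22) and overlapped for the other ratios.

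The other genes of these families were read from lists of names. Of 20 further classical and related cadherins, 11 were tested and 1 passed in each direction, beside 3.4% of all tested genes higher and 2.89% lower, with a median log2 fold change of 0.03. The count of 2 became 1 without BLM 1 or BLM+HBO 3. Cdh3 (P-cadherin) was lower, at 10.03 ± 3.30 CPM in BLM and 3.72 ± 3.45 CPM in BLM+HBO (SD, n = 4 and n = 3), a log2 difference of -1.43 (standard error 0.53). Cdh22 was higher, at 1.28 ± 0.49 and 2.69 ± 0.44 CPM, a log2 difference of 1.07 (standard error 0.35). Of 14 catenins and other adherens junction partners, 13 were tested. Beside 3.4% of all tested genes, 2 passed, both upward, and 1 was left without BLM 1 or any single BLM+HBO mouse. These were Ctnnd2 (0.78, standard error 0.27) and Ctnna3 (1.28, standard error 0.52), the latter an alpha-catenin of heart muscle, whose markers were higher in the same group as given beside Cdh2.

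Among 12 other EMT transcription factors, 11 were tested and 2 passed, both downward, beside 2.89% of all tested genes. They were Prrx1, a mesenchymal homeobox gene (log2 difference -0.74, standard error 0.30), and Sox9 (-1.20, standard error 0.49). Prrx1 had 55.1, 39.5, 35.5 and 31.9 CPM in BLM and 16.2, 37.8 and 18.7 CPM in BLM+HBO, and BLM+HBO 2 again lay among the BLM mice. The count of 2 dropped to 0 without BLM+HBO 1 or BLM+HBO 3 and to 1 without BLM 1 or BLM 2. In contrast, all 12 regulators of the epithelial state had a log2 fold change above 0, with a median of 0.23, and 2 passed the thresholds upward, beside 3.4% of all tested genes. Some epithelial cell markers stood higher too: 9 of 9 AT2 markers (median 0.32, 1 called) and 7 of 7 ciliated markers (median 0.38, 1 called) were above 0. Of 5 club markers, 3 were above 0 and 2 below, and 2 were called higher. The AT1 markers were mixed, with 5 of 8 above 0 and 3 below, a median of 0.06 and 0 called. Being above 0 was not limited to epithelial markers, since 8 of 8 endothelial markers were too (median 0.24, 0 called). Over all tested genes 48.8% were below 0. Summed AT2 markers were 9534 to 17345 CPM in BLM and 12020 to 29120 CPM in BLM+HBO, none was at 0 in all mice, and their part in the values of the regulators was not tested. The 2 regulators past the thresholds were Ovol1 (0.98, standard error 0.37) and Ovol2 (0.80, standard error 0.34), zinc-finger factors that repress Zeb1, and both were low, at 0.739 and 1.59 CPM in BLM. Leaving out BLM+HBO 3 left 0 of the regulators past the thresholds, and leaving out BLM 1 or BLM 2 left 1. Zeb1 itself did not differ detectably, as given above. Of 19 epithelial junction and keratin genes, 1 passed, Cldn4 (claudin-4), which was lower (-0.83, standard error 0.30), and 0 passed without BLM+HBO 1 or BLM+HBO 3 and 2 without BLM+HBO 2. In this list 12 genes were above 0 and 7 below, the keratins Krt7, Krt8, Krt18 and Krt19 among the latter.

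The mesenchymal and matrix list stood with Fn1 and Vim. All 20 genes were tested and had a log2 fold change below 0, 12 passed the thresholds downward, against 2.89% of all tested genes, and the median was -0.78. Acta2 (smooth muscle actin) had 399 ± 75.2 CPM in BLM and 236 ± 70.7 CPM in BLM+HBO (SD, n = 4 and n = 3), a log2 difference of -0.76 (standard error 0.22). Vcan (versican) had 48.4 ± 22.2 CPM in BLM and 23.1 ± 5.19 CPM in BLM+HBO (SD, n = 4 and n = 3), a log2 difference of -1.07 (standard error 0.32). Leaving out 1 mouse lowered the count to 3 (BLM 1), 6 (BLM 2), 5 (BLM+HBO 1) and 2 (BLM+HBO 3) and raised it to 15 (BLM+HBO 2). With robust empirical Bayes 5 genes passed, with DESeq2, the method of the study, 8, and with limma-trend 13. The list was drawn up with earlier results of these data known, so its count is no independent evidence of its direction.

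The fibronectin receptors and their adhesion partners held 0 of 13 genes past the thresholds, with a median of -0.13, and up to 4 without BLM+HBO 2. At an unadjusted P below 0.05 without the fold, Itga8 was higher (0.55, standard error 0.17) and Itgb3 lower (-0.53, standard error 0.17) by edgeR's test. Itgav (-0.49), Sdc4 (-0.31) and Itga5 (-0.55) were also lower at that limit, which makes 1 higher and 4 lower of 13. Over all tested genes 5.11% were higher and 5.54% lower at that limit. The 5 vimentin-linked filament genes also held 0, with a log2 difference of 0.49 (standard error 0.22) for Synm and -0.34 (standard error 0.19) for Des, and 2 passed without BLM+HBO 2. All 10 genes of the TGF-beta list lay below 0, beside 48.8% of all tested genes, and their part in the Snai1 value was not tested. Their median was -0.13, and 1 passed downward, beside 2.89% of all tested genes. It was Tgfb3, which lay at the fold threshold, and 0 passed without BLM 1, BLM 2 or BLM+HBO 1 or with a filter of at least 1 CPM in 3 mice. Tgfb3 stood at 95.4 ± 14.3 CPM in BLM and 63.5 ± 14.7 CPM in BLM+HBO (SD, n = 4 and n = 3), a log2 difference of -0.59 (standard error 0.18).

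**Figure D5:**
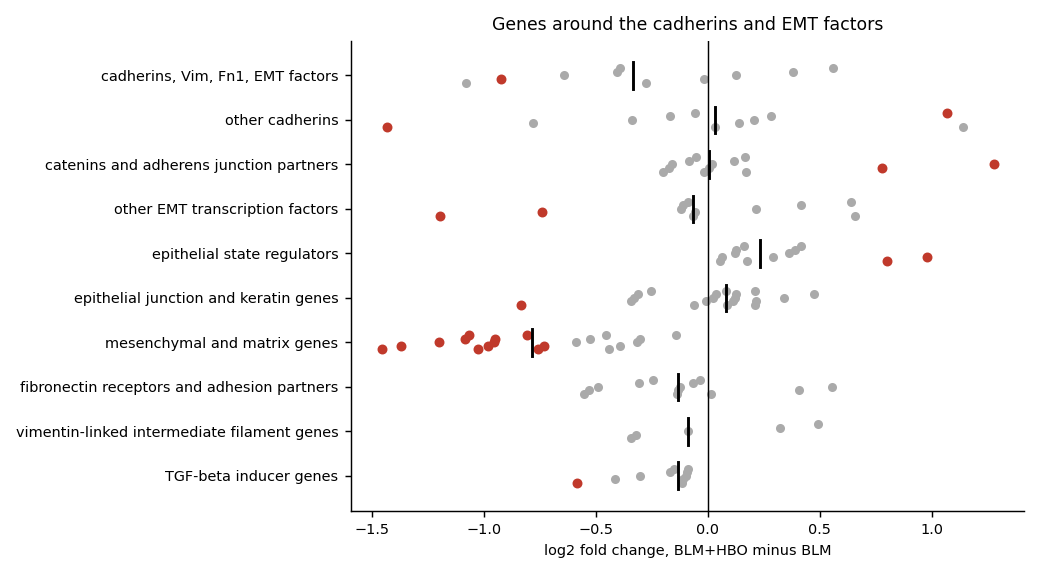
Log2 fold change of BLM+HBO against BLM (x axis) for the tested genes of the 10 genes and of each related list (y axis), with 1 point per gene, red points for genes past both thresholds and black bars for the medians. The mesenchymal and matrix genes lay below 0 (median -0.78), the epithelial state regulators above 0 (median 0.23), and the other lists had medians between -0.34 and 0.08.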

How the data were processed

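RNA from the right lung lobes of 7 mice was sequenced, with 1 library per mouse. After trimming by Trim Galore, the authors aligned reads to GRCm38 using HISAT2 (2.2.0 in the submitters' processing notes) and assigned them to genes by featureCounts with default options. These ignore strand and skip multi-mapping reads and reads shared between genes. The deposited table held raw counts with no normalization. The release of the gene annotation was not given in the sources used here. Symbols came from GENCODE vM21.

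Low genes were removed by filterByExpr (minimum count 10, minimum total 15), and counts were normalized by TMM (factors 0.964 to 1.036) and tested over all 17465 genes with edgeR 4.0.16 under R 4.3.3 (quasi-likelihood test, BLM as the reference, all 7 mice, common biological coefficient of variation 0.222). Standard errors were the log2 fold change over the root of the F statistic. The thresholds were those of the study, an unadjusted P under 0.05 together with more than a 1.5-fold difference, with Benjamini-Hochberg adjustment over all tested genes. The study used DESeq2, run here (1.42.0) as an alternative, with limma-trend (3.58.1). Log2 CPM used a prior count of 2. The script was tested on simulated data. Motifs were searched in RefSeq promoter stretches of GRCm38.p6, which matched 4 of the 10 genes (Vim, Snai1, Twist1 and Zeb2).

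The genes and lists were chosen with earlier results of these data known. All 10 genes were named, from each list the 2 genes with the lowest P in each direction past the thresholds (or the 2 with the lowest P where none passed), and the 3 closest patterns for the 3 genes that varied most. Alternatives were RLE factors, no filter, at least 1 CPM in 3 mice, stricter limits (fold 2, P 0.01), a replicate block, robust empirical Bayes and each mouse left out. The qPCR values of the study were not used here.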

Additional observations from a re-analysis of the deposited data

Results flagged for a closer look

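The total read count of BLM 4, 19002242, lay apart from those of the other BLM mice, which were between 18436336 and 18452895, with a gap of 0.971 of the span of the 4 totals, more than Dixon's limit allows. Of 15 groups of 4 values examined this was the only 1, and chance marks about 1 in 20. None of the levels of the 10 genes was marked.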

How the results depend on the processing

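Each of the 10 genes but Zeb1 kept the direction of its log2 fold change in every fit that could be made. Snai1 passed the thresholds in all but that with a fold change above 2. Twist1 failed the filter without BLM 1 and without BLM 3, so those fits gave no value. Genes called over all were 1940 with no filter, 509 with a fold change above 2 and 319 with a P limit of 0.01, and genes at adjusted P below 0.05 were 128 with DESeq2 and 387 with no filter. Of the 10 genes, limma-trend called 2 and no filter 2 (2 lower in each), and a fold change above 2 called 0 (0 lower). Over the related lists, 22 genes were called, 12 of them in the mesenchymal and matrix list, beside 6.29% of all tested genes in either direction. The number of genes in each list is given above. The lists held 10 called genes with a fold change above 2 and 3 with a P limit of 0.01. Fn1 passed with limma-trend (-1.49) and with no filter (-1.09). No pairing by replicate number was seen, with correlations of deviations of -0.01, -0.07 and 0.16 between mice of the same number. BLM+HBO 3 correlated best with its own number, but not every mouse did. So few correlations cannot exclude a pairing. A fit with the replicate number as a block called 1258 genes in place of 1098, and 3 of the 10 genes, 2 lower (Snai1 and Fn1, -1.55) and 1 higher (Snai2, 0.72), with Zeb1 at 0.0087. With each mouse left out, genes called over all ran from 659 (without BLM+HBO 1) to 1914 (without BLM+HBO 2), with 706 without BLM 1, genes at adjusted P below 0.05 from 0 to 267, genes of the 10 called from 1 to 4 (1 to 3 lower and 0 to 1 higher), and genes of the related lists from 6 to 32. The number of the 10 called was 4 without BLM+HBO 2 and 2 without BLM 4 or BLM+HBO 3, and for the lists it was 8 (BLM 1 left out), 10 (BLM+HBO 1) and 6 (BLM+HBO 3). Log2 fold changes ran from 0.05 to 0.20 (Cdh1), 0.28 to 0.56 (Cdh2), -0.70 to -0.26 (Cdh11), -0.45 to -0.34 (Vim), -2.09 to -0.64 (Fn1), -1.21 to -0.66 (Snai1), 0.39 to 0.73 (Snai2), -0.13 to 0.04 (Zeb1), -0.41 to -0.08 (Zeb2) and -2.34 to -0.10 (Twist1). Zeb1 lay above 0 in 4 of these, at 0.0447 (BLM 1 left out), 0.04 (BLM 2), 0.01 (BLM+HBO 2) and 0.03 (BLM+HBO 3). The cause of these differences was not tested. Twist1, with 2 to 23 reads per mouse, had the widest interval, and the mice of both groups were split in its level.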
